A study of Saccharomyces cerevisiae with 6 samples.

Results

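The genes considered here encode enzymes and regulators of sphingolipid synthesis in budding yeast, and their mRNA levels were compared between cells with little Hsp90 and cells with Hsp90. They are LCB1, LCB2, TSC10, SUR2, LAG1, LAC1, AUR1, CSG2, IPT1 and ORM2, picked by name for their place in the pathway. The rule used no array value, although earlier results of these arrays were known when the genes were picked. All 10 were found by their systematic names among the 6377 genes of the table, each with 1 value on all 6 arrays. The cells were log-phase yeast of the R1158 background with the genotype TETp-HSC82 hsp82Δ arg4Δ lys5Δ car2Δ::URA3. The methods of the study give an S288C background and name ura3::tTA in the parent strain. HSP82 is deleted in treated and untreated cells alike, so that HSC82, under a promoter that doxycycline (dox) shuts off, was the only Hsp90 gene left. The arg4Δ, lys5Δ and car2Δ::URA3 alleles, made for isotope labeling of proteins, were also shared by both. Treated cells had received 5 µg/ml dox for 11 h and untreated cells none. An effect of dox itself cannot be told apart from that of HSC82 repression, since every treated sample had both.

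Sphingolipids are built in the endoplasmic reticulum and the Golgi. Serine palmitoyltransferase joins serine to palmitoyl-CoA, a reductase and a hydroxylase turn the product into long-chain bases, and ceramide synthase attaches a very long-chain fatty acid to give ceramide. Inositol phosphate, mannose and a further inositol phosphate are then added in turn to give the complex sphingolipids IPC, MIPC and M(IP)2C of the plasma membrane. The Orm proteins restrain the entry enzyme, and TORC2, through the kinases Ypk1 and Ypk2, relieves that restraint when sphingolipids run short.

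The 6 arrays came from 2 cultures with 3 technical arrays each. The dox-treated cells of culture 1 were grown with light amino acids and those of culture 2 with heavy ones, so culture and isotope label cannot be told apart. No dye swap was made, treated samples having been labeled with Alexa dyes in 1 orientation throughout, so that dye and treatment cannot be told apart for a single gene either. Each value is a log2 ratio of treated over untreated cells, so that 0 means equal signal. The arrays held 6180 to 6353 values with medians between −0.03 and 0.02, and signal intensities were not analysed here. Every test against 0 in the main fit rests on 2 cultures, since the arrays of a culture are technical. Some of the refits quoted below instead took the 6 arrays as replicates, with or without culture as a random block. For 6290 genes the means of the 2 cultures were set against 0 in limma. A gene was called changed where the mean exceeded 1.5-fold and the unadjusted p was below 0.05. HSC82 lay at −6.25 in culture 1 and −5.73 in culture 2. The probe of its paralog HSP82, a gene deleted in both arms, gave −6.63 and −5.97, close to HSC82 and the lowest mean of all tested genes (−6.30, with 2 arrays at the lowest value of the table). An HSP82 signal that fell upon dox goes against the labeled deletion unless the probe read HSC82 RNA, which was not tested. The arrays measure RNA of whole cultures, so that fewer cells with a transcript and less transcript per cell cannot be told apart.

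None of the sphingolipid synthesis genes was called changed. The count was 0 of 10, where 10.5% of all tested genes were called, 5.74% as higher and 4.74% as lower. With an adjusted p below 0.05 and the same fold, 5.36% of all genes were called. Here the count of 0 of 10 follows from the first, since an adjusted p is never below the unadjusted one. By the unadjusted p alone, 4 of 10 passed, beside 29.1% of all genes. Of these, SUR2, LAG1 and IPT1 were lower (3 of 10, beside 15.2% of all genes lower) and CSG2 was higher. All of them had a mean change below 1.5-fold.

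Most of the means lay below 0, without a test of the genes as a group. In dox-treated cells 9 of 10 were negative, beside 3198 of all 6290 tested genes. The median over the synthesis genes was −0.16, beside −0.01 over all tested genes. In culture 1 the median was −0.23, against −0.02 for all genes, and in culture 2 it was −0.14, against 0.02. LCB2, SUR2, LAG1 and IPT1 were lower on all 6 arrays, 4 of 10 beside 23.4% of genes with 6 values. CSG2 was higher on all 6 arrays, 1 of 10 beside 23.6%. For 6 of the genes the 95% interval of the mean lay inside 1.5-fold in either direction. For SUR2, LAG1, CSG2 and IPT1 it reached beyond 1.5-fold. The SE behind these intervals draws on a variance that limma shares over all genes, and a dye effect is not in them. A change of 1.5-fold is therefore not set aside for any of the genes.

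**Figure D1:**
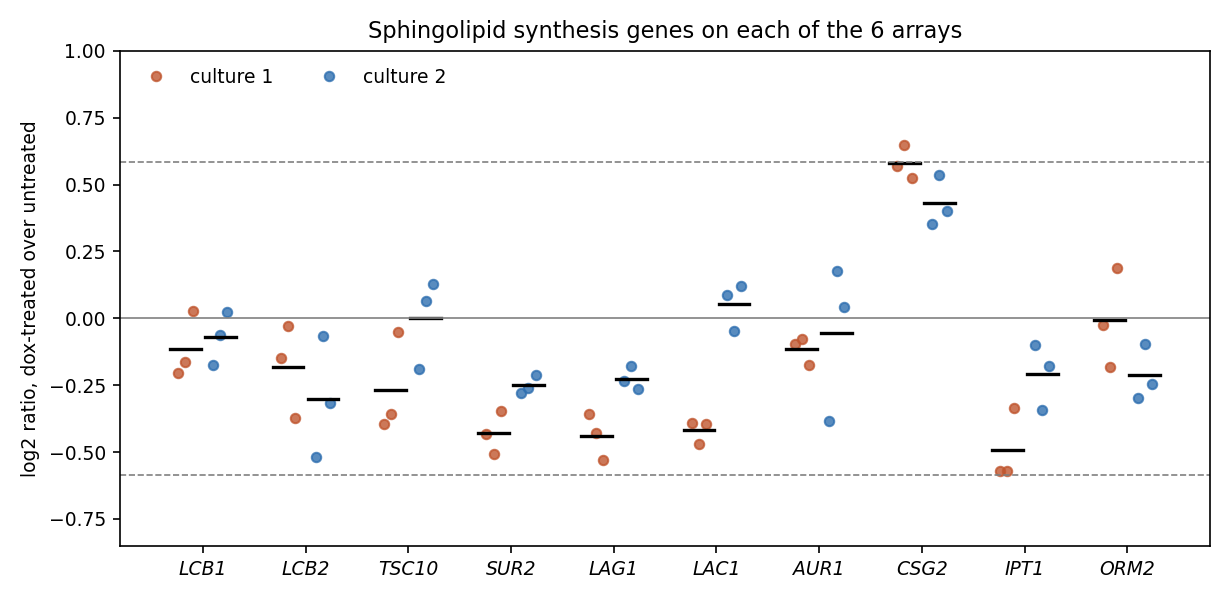
Log2 ratio of dox-treated over untreated signal (vertical axis) for the 10 sphingolipid synthesis genes on each array, in pathway order, with culture 1 and culture 2 marked apart culture means drawn as bars and 1.5-fold as dashed lines. CSG2 sits between 0.35 and 0.65 on every array, above every value of the other 9 genes, whose highest is 0.19.

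The pathway begins with serine palmitoyltransferase, whose catalytic core is a dimer of Lcb1 and Lcb2. LCB1 (YMR296C) had log2 ratios of −0.21, −0.16 and 0.03 on the arrays of culture 1 and −0.18, −0.06 and 0.02 on those of culture 2. Both cultures therefore straddled 0 and overlapped over most of their range. The mean was −0.09 (SE 0.12, n = 2 cultures), with a 95% interval from −0.39 to 0.20 and an adjusted p of 0.633 from limma.

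LCB2 (YDR062W), which encodes the subunit that binds the pyridoxal phosphate cofactor, had −0.15, −0.03 and −0.37 in culture 1 and −0.52, −0.06 and −0.32 in culture 2. Every array was below 0, with 1 array of each culture close to it, and the cultures overlapped. The mean was −0.24 (SE 0.12), a 1.18-fold lower level, with an interval from −0.54 to 0.06 and an adjusted p of 0.240. TSC3, the small subunit that stimulates the enzyme, had culture means of 0.15 and 0.17 and was not called (adjusted p = 0.405). LCB2 minus LCB1, taken within each array, averaged −0.15 and had no fixed sign, lying above 0 on 2 arrays and below 0 on 4.

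The next step is the reduction of 3-ketosphinganine by Tsc10. TSC10 (YBR265W) had −0.39, −0.36 and −0.05 in culture 1 and −0.19, 0.06 and 0.13 in culture 2. The lower values came from culture 1, but array 3 of that culture lay inside the range of culture 2. The mean was −0.13 (SE 0.13), with an interval from −0.46 to 0.19 and an adjusted p of 0.536. Culture 2 by itself had a mean near 0.

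Sur2 hydroxylates the long-chain base to give phytosphingosine, the main base of yeast sphingolipids. SUR2 (YDR297W) had −0.43, −0.51 and −0.35 in culture 1 and −0.28, −0.26 and −0.21 in culture 2. It was below 0 on every array, and each array of culture 1 was below each array of culture 2. The mean was −0.34 (SE 0.12), a 1.27-fold lower level, with an interval from −0.65 to −0.03. The unadjusted p of limma was 0.0360 and the adjusted p 0.146. SCS7, whose product hydroxylates the fatty acid of ceramide, had the opposite order of cultures, with means of −0.22 and −0.52, and a mean over both of −0.37 (adjusted p = 0.148).

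Ceramide synthase has a pair of paralogous catalytic subunits, Lag1 and Lac1, either of which suffices for growth. LAG1 (YHL003C) had −0.36, −0.43 and −0.53 in culture 1 and −0.23, −0.18 and −0.27 in culture 2. All arrays were below 0 and the cultures did not overlap. The mean was −0.33 (SE 0.12), a 1.26-fold lower level, with an interval from −0.65 to −0.02, an unadjusted limma p of 0.0414 and an adjusted p of 0.155.

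LAC1 (YKL008C) had −0.39, −0.47 and −0.40 in culture 1 and 0.09, −0.05 and 0.12 in culture 2. In culture 1 its ratios were close to those of LAG1, whereas in culture 2 they scattered around 0, so the cultures did not overlap. The mean over both was −0.18 (SE 0.15), with an interval from −0.57 to 0.21 and an adjusted p of 0.476. LAC1 minus LAG1, taken within each array, was 0.02 in culture 1 and 0.28 in culture 2. LIP1, the regulatory subunit that both paralogs need, had means of −0.20 and −0.03 and was not called (adjusted p = 0.563).

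Aur1 is the IPC synthase and the target of the antifungal aureobasidin A, and Kei1 is its regulatory subunit. AUR1 (YKL004W) had −0.10, −0.08 and −0.17 in culture 1 and −0.38, 0.18 and 0.04 in culture 2. Culture 1 was narrow and slightly below 0, while culture 2 spread around it on both sides. The mean of −0.09 (SE 0.12) had an interval from −0.38 to 0.21 and an adjusted p of 0.659. KEI1 lay at −0.21 in culture 1 and 0.13 in culture 2, with an adjusted p of 0.883 for the mean over both.

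MIPC is made by a mannosyltransferase that pairs the regulatory subunit Csg2 with a catalytic subunit, either Sur1 (also named Csg1) or its paralog Csh1. CSG2 (YBR036C) had 0.57, 0.65 and 0.52 in culture 1 and 0.35, 0.53 and 0.40 in culture 2. It was above 0 on every array and the cultures overlapped. The mean was 0.50 (SE 0.12), a 1.42-fold higher level, with an interval from 0.20 to 0.81, an unadjusted limma p of 0.0074 and an adjusted p of 0.0717. Over 13 refits its adjusted limma p ran from 0.000232 to 0.116 and was below 0.05 in 3. The lowest unadjusted p of these refits came from taking technical arrays as replicates. By the mean CSG2 ranked 484th from the highest of 6290 genes. CSG2 was the highest of the 10 genes on 6 of 6 arrays.

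Its catalytic partner stood on the other side of 0. SUR1 (YPL057C) had −0.74, −0.90 and −0.997 in culture 1 and −0.47, −0.84 and −0.61 in culture 2, all well below 0. It fell 1.69-fold, with a mean of −0.76 (SE 0.13, 95% interval −1.08 to −0.44) and an adjusted p of 0.0393, and was called. Over 13 refits the adjusted p ran from 0.000149 to 0.0933, was below 0.05 in 8 and was highest after median centering of the arrays. Here too the lowest unadjusted p came from taking technical arrays as replicates. Within the arrays CSG2 exceeded SUR1 by 0.82 to 1.55 on the log2 scale, with culture means of 1.46 and 1.07, and no array reversed the order. CSH1 was near 0, with −0.10 in culture 1 and 0.16 in culture 2 (adjusted p = 0.895). CSG2 was above it on 6 of 6 arrays, by 0.68 in culture 1 and 0.27 in culture 2. These differences compare changes upon dox, not levels of the genes, and were not tested against other gene pairs.

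Ipt1 carries out the last step, the addition of inositol phosphate to MIPC. IPT1 (YDR072C) had −0.57, −0.57 and −0.34 in culture 1 and −0.10, −0.34 and −0.18 in culture 2. All 6 arrays were below 0, and the cultures met at −0.34. The mean of −0.35 (SE 0.13) was the lowest of the 10 genes, a 1.27-fold lower level, with an interval from −0.68 to −0.02, an unadjusted limma p of 0.0416 and an adjusted p of 0.156. The unadjusted p rose to 0.0549, 0.0511 and 0.0798 when array 1 or 2 of culture 1 or array 2 of culture 2 was left out.

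**Figure D2:**
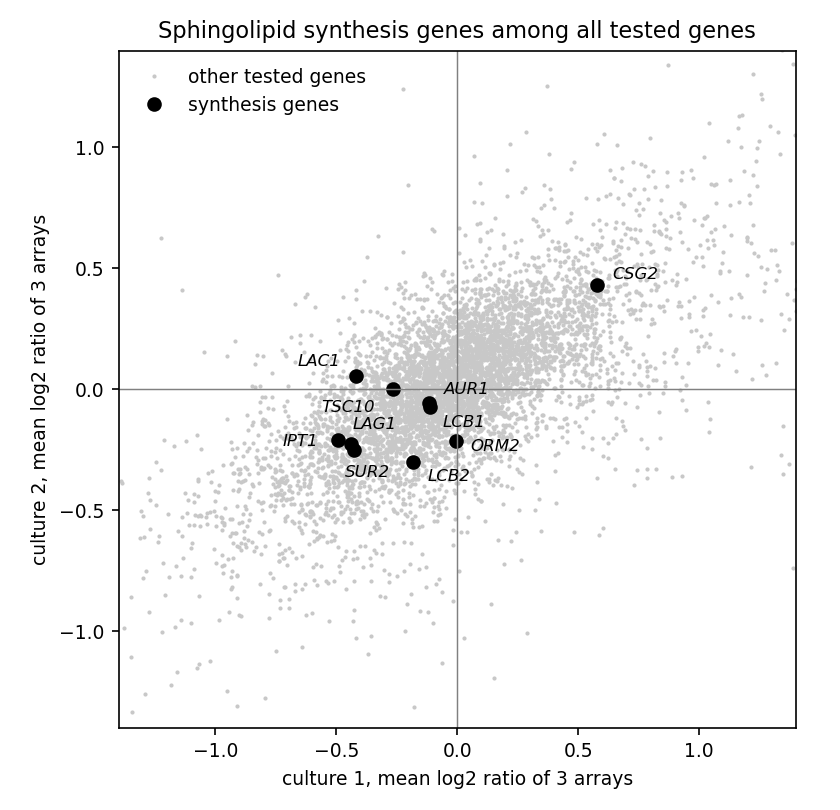
Mean log2 ratio of the 3 arrays of culture 1 (horizontal axis) against that of culture 2 (vertical axis) for the 10 sphingolipid synthesis genes (black) and the other tested genes (grey), with the axes limited to the central range. CSG2 (0.58, 0.43) lies at the upper right, LAC1 (−0.42, 0.05) lies lower in culture 1 alone, and TSC10 and ORM2 lie close to 0 in 1 culture and below it in the other.

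The Orm proteins are not enzymes of the route but membrane inhibitors that bind serine palmitoyltransferase. ORM2 (YLR350W) had −0.03, −0.18 and 0.19 in culture 1 and −0.30, −0.10 and −0.25 in culture 2. The higher values came from culture 1, with an overlap of the cultures. The mean was −0.11 (SE 0.12), with an interval from −0.42 to 0.20 and an adjusted p of 0.592.

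Its paralog ORM1 (YGR038W) had −0.79, −0.73 and −0.92 in culture 1 and −0.23, −0.40 and −0.32 in culture 2. All arrays were below 0, and culture 1 lay entirely below culture 2. The mean of −0.57, a 1.48-fold lower level, stayed just short of the fold threshold (SE 0.16, adjusted p = 0.0899). It was −0.59, and past the threshold, without array 2 of culture 1 and likewise without array 1 of culture 2. ORM2 minus ORM1 was 0.81 in culture 1 and 0.11 in culture 2, above 0 on 5 of 6 arrays. Whether a probe also reads the paralog was not tested for LAG1 and LAC1, SUR1 and CSH1, or ORM1 and ORM2, since probe sequences were not analysed here. The differences within these pairs are differences between probes whose specificity was not tested. On these arrays the probe of the deleted HSP82 had a mean of −6.30 beside −5.99 for HSC82.

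**Figure D3:**
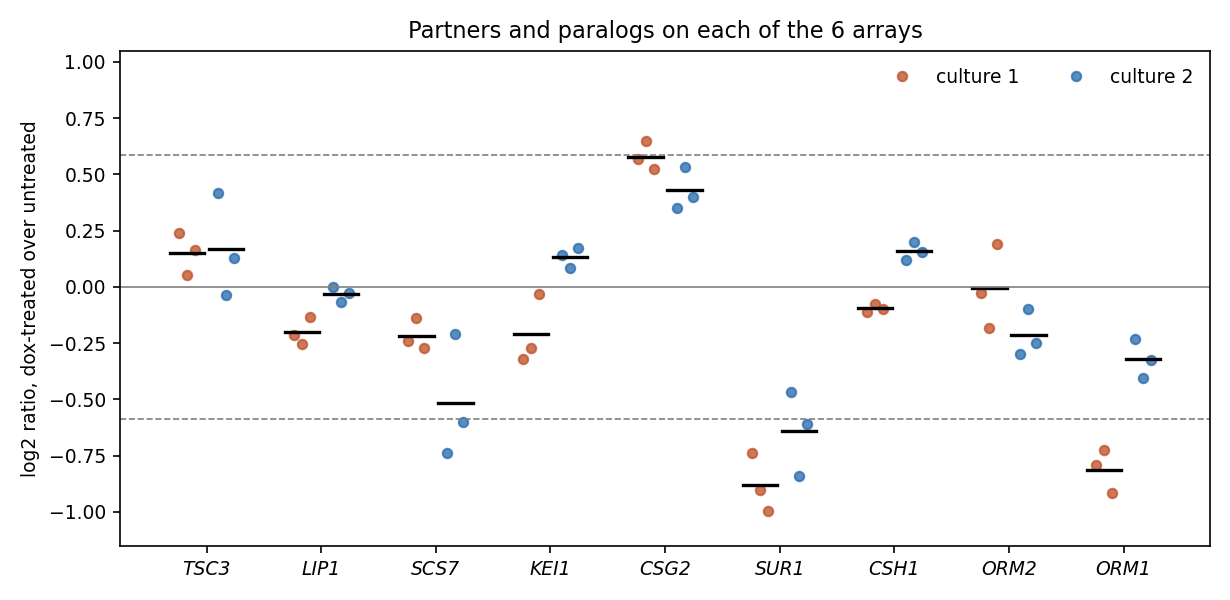
Log2 ratio of dox-treated over untreated signal (vertical axis) on each array for sphingolipid synthesis genes beside their partner subunits and paralogs, with culture 1 and culture 2 marked apart, culture means as bars and 1.5-fold as dashed lines. SUR1 lies between −0.997 and −0.47, below every CSG2 value, and ORM1 between −0.92 and −0.23, with its culture 1 arrays below all ORM2 values.

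The cultures were then compared with each other over 3 technical arrays against 3, a test of these cultures and the isotope label that goes with each. The arrays of the cultures did not overlap for 3 of 10 genes, SUR2, LAG1 and LAC1, beside 42.3% of all genes with 6 values. Under the rule for this comparison, more than 1.5-fold apart and an adjusted p below 0.05, 0 of 10 were called by limma, beside 7.35% of 6241 genes, and 3 of 10 had an unadjusted p below 0.05, beside 37.5%. LAC1 passed the adjusted p alone (1 of 10, beside 22.3%), being higher in culture 2 by 0.47 on the log2 scale (1.39-fold, SE 0.09, 95% interval 0.27 to 0.67, adjusted p = 0.00614 from limma). For the other 9 genes adjusted p-values ran from 0.0856 (IPT1) to 0.793 (LCB1). Among the partner genes ORM1 differed by 0.49 (adjusted p = 0.00681) and KEI1 by 0.34 (adjusted p = 0.0411), both below 1.5-fold.

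The number of the synthesis genes below 0 was 9, 9 and 7 on the arrays of culture 1 and 8, 7 and 5 on those of culture 2. The array medians over all genes lay between −0.03 and 0.02. Culture 1 was the lower culture for 7 of 10, beside 56.4% of all tested genes. Grouped by whether loss of the gene alone is lethal, a grouping made after the values were seen, LCB1, LCB2, TSC10 and AUR1 had means from −0.24 to −0.09. The means of the 6 dispensable genes ran from −0.35 to 0.50 and included all 4 that passed the unadjusted p, as 29.1% of all tested genes did. A difference between these groups was not tested.

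The genes adjacent on the chromosome to the synthesis genes, SUR1 and ORM1 were read from the same fit. Of all tested genes 10.5% were called. The neighbours of LCB1, LCB2, TSC10, LAG1, LAC1, AUR1 and ORM1 were not called. Beside CSG2, PDX3 had a mean of 0.29 and SCO1 of 0.06. Beside IPT1, PAA1 had 0.47 and SNF11, which fell and was called, had −0.72. ORM2 lay next to DIC1 (−1.07, called) and NIT3 (0.30), and SUR2 next to ATP5 (0.75, called) and MHR1 (−0.23). SUR1 lay next to PDR12 (−0.67), which fell and was called as SUR1 was, and LCL1 (−0.22). LAC1 and AUR1 lie on the same chromosome with 4 genes between them in the reference annotation, and LCB1 and LIP1 with 1, PRC1, between.

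Beyond synthesis, related genes were read from the same fit in lists by function, which held 51 genes, 50 of them tested. Of these 4 were called, 3 lower and 1 higher, and 17 passed the unadjusted p alone, 14 of them lower. For all genes the corresponding shares are the 10.5% and 29.1% given above, against which each list's counts are to be read. By direction, 4.74% of all genes were called lower and 5.74% higher, and 15.2% passed the unadjusted p as lower. The median of the 50 tested list genes was −0.03. Among the 7 other synthesis genes, the partners described above, SUR1 was the only one called, and the list's median was −0.12. The lists were chosen with values of these arrays known.

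Fatty acid elongation supplies the very long-chain acyl group of ceramide, and 0 of its 6 genes were called by limma, with 2 of 6 past the unadjusted p. These were ELO1, an elongase of medium chains, with a mean of 0.31 and PHS1, the 3-hydroxyacyl-CoA dehydratase, with −0.35. ELO2 and ELO3, the elongases of very long chains, had means of −0.03 and −0.21. All 6 had a lower mean in culture 1 than in culture 2, as had 56.4% of all tested genes, and ELO2 changed sign between them, from −0.24 to 0.19.

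Of the 9 genes for breakdown and long-chain base handling, 1 was called. RSB1, whose membrane protein protects cells from added long-chain bases, had −0.66, −0.62 and −0.53 in culture 1 and −0.74, −0.84 and −1.20 in culture 2, with culture 2 lower throughout. It fell 1.70-fold, with a mean of −0.76 (SE 0.14, adjusted p = 0.0443, below 0.05 in 6 of 13 refits that gave 0.000276 to 0.103). As for SUR1, the lowest unadjusted p of these refits came from taking technical arrays as replicates. ISC1, the phospholipase C that cleaves complex sphingolipids, had a mean of −0.44, and YSR3, a phosphatase of long-chain base phosphates, one of 0.40. Both passed the unadjusted p but not the fold.

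In the TORC2 and Ypk1 list 1 of 16 genes was called. YPK2 had −1.91, −1.98 and −2.58 in culture 1 and −0.84, −0.67 and −0.97 in culture 2. All arrays were far below 0 and the cultures were widely apart. It fell 2.81-fold, with a mean of −1.49 (SE 0.31) and an adjusted p of 0.0587. Over 13 refits the adjusted limma p ran from 0.00169 to 0.119 and was below 0.05 in 4. The lowest unadjusted p came with technical arrays as replicates. The paralog YPK1 was near 0, with 0.09 in culture 1 and −0.12 in culture 2. Whether the probe of either gene also reads the paralog was not tested. TOR2, the kinase of the complex, had a mean of 0.23, while LST8, a subunit shared with TORC1, had −0.48, which passed the unadjusted p but not the fold. AVO2, another subunit, had a mean of −0.39 that leaned on 1 array, with −1.32 on array 3 of culture 1 and −0.35 to −0.01 on the other 5.

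The eisosome is a plasma membrane domain whose core proteins respond to sphingolipids, and 0 of its 3 genes were called by limma, with 2 of 3 past the unadjusted p. LSP1 had a mean of −0.581, just inside the threshold of 0.585 that 1.5-fold makes on the log2 scale, and PIL1 of −0.45. NCE102 had −0.09.

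Pdr1 and Pdr3 are transcription factors of drug resistance that also act on genes of lipid metabolism. Of 10 genes of this list 9 were tested and 1 was called. ICT1, which encodes a lysophosphatidic acid acyltransferase, had culture means of 0.60 and 0.60 and rose 1.51-fold (adjusted p = 0.0527). PDR3 (−0.51), YOR1 (−0.53) and PDR16 (−0.53) passed the unadjusted p but not the fold. PDR5, a major drug efflux pump, had values in culture 1 alone, −1.75, −1.89 and −1.59, and was not tested.

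**Figure D4:**
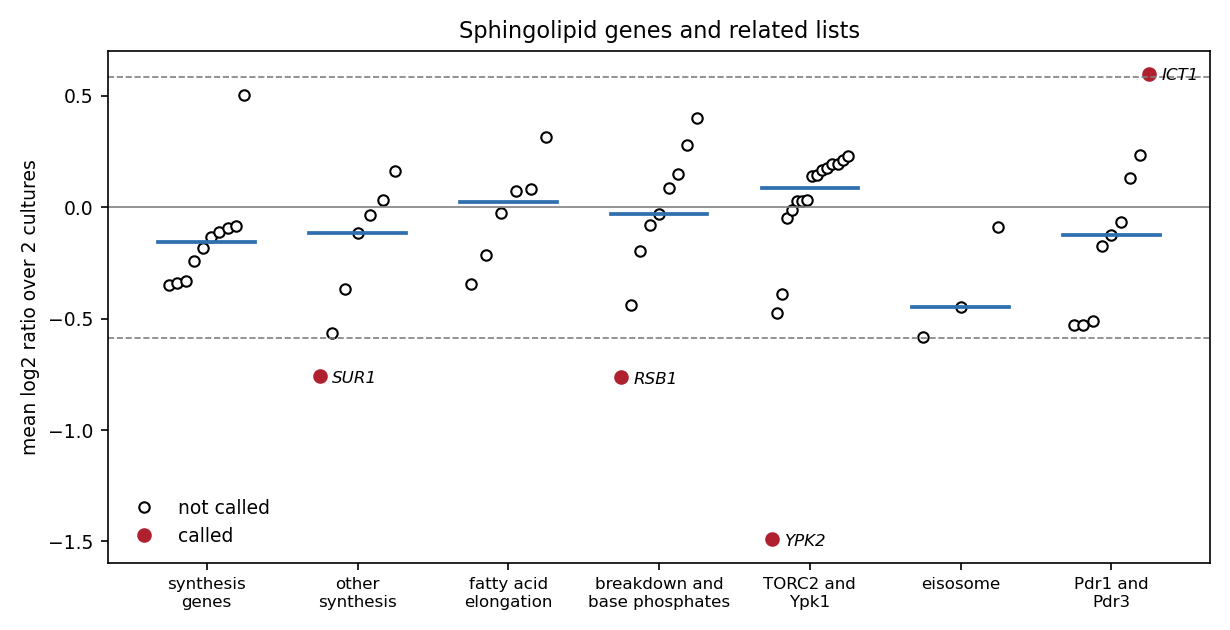
Mean log2 ratio of dox-treated over untreated cells for each of the sphingolipid synthesis genes and each gene of the 6 related lists, with called genes in red, list medians as blue bars and 1.5-fold as dashed lines. Among the 10 synthesis genes 0 are called, and the called genes elsewhere are SUR1, RSB1 and YPK2 (lower) and ICT1 (higher).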

How the data were processed

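Total RNA of dox-treated and untreated cells was compared on 6 two-color oligonucleotide arrays from 2 cultures. LOWESS normalization was applied per array by the authors in GeneSpring GX, and the deposited values, 1 for each ORF on an array, were taken as log2 ratios. This scale was inferred because 10 values equal −6.64, which is log2 of 0.01, and the direction from the titles and the fall of HSC82. Whether the deposited log2 values were centered further is unknown. Row names were matched to locus tags of the R64 reference table (5840 of 6377 rows), used for names and gene order only. Columns of other samples numbered 0. The mean ratio of each culture entered an intercept-only fit against 0 in limma 3.58.1 (R 4.3.3; lmFit, eBayes, two-sided, Benjamini-Hochberg adjustment over 6290 genes). The methods give the criterion of 1.5-fold with p below 0.05 but name no test. The fits were run on simulated data with planted changes of 2-fold. Changes as small as those of the synthesis genes were not simulated. The named genes were the 10 synthesis genes, their partners and paralogs, HSC82 and HSP82, and each called gene of the lists; other list genes were named after their values were seen. The genes and lists were chosen with earlier results of these data known. Alternatives covered thresholds, replication unit, centering, normalization, missing and floor values, and each culture or array left out. The adjusted p under each refit was added after seeing the data. Promoter motifs, probe sequences and protein data were not analysed here.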

Additional observations from a re-analysis of the deposited data

Results flagged for a closer look

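YPK2, the paralog of the kinase gene YPK1, differed between the cultures by 1.33 on the log2 scale (culture 2 minus culture 1, limma over 3 technical arrays against 3, adjusted p = 0.00126), with means of −2.16 and −0.83. The eisosome gene LSP1 differed by 0.61 (adjusted p = 0.00753), with means of −0.89 and −0.28. Each was lower on all 6 arrays, and the cultures differ in isotope label as well.

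Of 60 genes examined for a single array far from the other 5, 3 had one. The rule flags about 1 in 20 sets of independent values from a single distribution. The arrays here are 3 technical arrays of each of 2 cultures, so that rate need not hold. AVO2 had −1.32 on array 3 of culture 1, with −0.35 as the nearest value. LCB4, a long-chain base kinase gene, had −0.25 on that array, with −0.08 as the nearest. SLM1, a TORC2 effector gene, had −0.045 on array 2 of culture 1, with 0.14 as the nearest. None of the 10 sphingolipid synthesis genes had such an array.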

How the results depend on the processing

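No synthesis gene was called under any of the 18 alternatives except with no fold threshold, where 4 passed. Several alternatives could not have added a call. The adjusted p and the 2-fold threshold only tighten the rule. Changing the replication unit, or leaving out genes with missing values or values at the floor, left the means of the synthesis genes unchanged, below 1.5-fold. The count over all genes, 659, became 337 with the adjusted p, 181 at 2-fold and 1833 with no fold threshold, and ran from 527 to 1082 with a culture or an array left out; the extremes were culture 2 alone and culture 1 alone, counted by fold. Of the related genes 4 became 2, 1 and 17 under the same changes and 3 to 9 with a culture or array left out, 9 in culture 1 alone; ICT1 was lost without array 3 of culture 1 (0.56) and without array 1 of culture 2 (0.56). The count of 337 was 2 after median centering of the arrays, 59 to 383 with an array left out and 672 with the 6 arrays as replicates. In that last fit 5 synthesis genes had an adjusted p below 0.05. The number was 4 where culture was a random block and 1 after quantile normalization. All of them changed less than 1.5-fold. Between the cultures, 1 synthesis gene (LAC1) passed with no fold threshold. Over all genes the 459 differences became 121 at 2-fold and 1394 with no fold threshold. The split of 172 higher and 287 lower in culture 2 became 123 and 330 after centering on the median. With a culture or array left out, the mean ran from −0.27 to 0.0013 for TSC10, from −0.42 to 0.053 for LAC1, from −0.21 to 0.13 for KEI1 and from −0.10 to 0.16 for CSH1, the sign turning when 1 culture was left out. The cause of these changes was not tested. With 2 cultures, the intervals of 6 of the 10 genes included 0.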
